A study of Mus musculus with 14 samples.

Results

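The 37 genes described here are stimulated by type I interferon. They were listed by symbol, with earlier results of these data known. Their rows were found in a deposited count table of 37409 mouse genes through the GENCODE M21 annotation, a step that uses no measured value. All 37 were found with counts, and all passed the low-count filter that left 17141 genes for testing. RNA came from subcutaneous tumours in C57BL/6 mice and was sequenced in 14 libraries. The treatment protocol in the labels names the inoculated cells as B16F10, a mouse melanoma line, whereas the cell type field names CT26, a colon carcinoma line. The summed level of 7 melanoma markers was 17040 to 21060 CPM (counts scaled to library size) across the libraries, against 7.05 to 9.80 CPM for 7 intestinal epithelium markers, so the tumours are called melanomas here. The day 0 group was untreated (n = 3). The other groups were taken at day 7 after an injection given at a tumour volume of about 150 mm3. They received D5W, which is dextrose 5% in water (n = 3), 2E'/PTX with siNeg (n = 4) or 2E'/PTX with siPD-L1 (n = 4). PTX is read as paclitaxel, 2E' is the study's polymer, siNeg is read as a control siRNA, and siPD-L1 as an siRNA against PD-L1. Carrier, drug and siRNA were given together in both siRNA groups, so what each contributed against D5W cannot be told apart.

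Type I interferons bind the IFNAR receptor, whose kinases Jak1 and Tyk2 activate the transcription factor complex ISGF3. Stat2 and Irf9 are subunits of ISGF3, which binds the interferon-stimulated response element (ISRE) in promoters. The induced genes encode RNA and DNA sensors, enzymes that degrade or modify viral RNA, and ubiquitin-like and ADP-ribosylation enzymes. They also encode feedback regulators such as Usp18 and the amplifier Irf7. In tumours these genes can be expressed by malignant cells and by infiltrating cells alike.

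Promoter windows from 250 bases before to 50 bases after the start site were available from RefSeq (GRCm38.p6) for 27 of the 37 genes, as 32 windows because some genes have several. The ISRE core, GAAA and a second GAAA with any 2 bases between them, searched on both strands, was present in 14 of the 32 windows (43.8%), compared with 3.44% of all 32851 windows of the same length. By gene, 13 of the 27 (48.1%) held it in at least 1 window, compared with 3.99% of all 27025 genes. The gamma-activated site TTCNNNGAA, also searched on both strands, was present in 6 of the 32 windows (18.8%) and in 8.30% of all windows. A match describes the letters of the window and is not a measured binding site. The windows of Isg15 (chr4:156200769-156201068, minus strand), Oas1a (chr5:120907476-120907775, minus strand), Ifit3 (chr19:34583279-34583578, plus strand) and Parp12 (chr6:39118300-39118599, minus strand) are shown, because Isg15 holds the most matches, Oas1a and Ifit3 hold 2 each, and Parp12, which gave the smallest p for siNeg against day 0, holds none. Capitals mark the ISRE core on either strand.
Isg15: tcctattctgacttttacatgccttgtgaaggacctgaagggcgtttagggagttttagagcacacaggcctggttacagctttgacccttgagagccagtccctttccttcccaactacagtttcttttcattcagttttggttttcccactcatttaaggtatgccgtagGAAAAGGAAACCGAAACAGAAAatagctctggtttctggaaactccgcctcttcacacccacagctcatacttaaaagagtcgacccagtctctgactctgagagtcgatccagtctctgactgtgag
Oas1a: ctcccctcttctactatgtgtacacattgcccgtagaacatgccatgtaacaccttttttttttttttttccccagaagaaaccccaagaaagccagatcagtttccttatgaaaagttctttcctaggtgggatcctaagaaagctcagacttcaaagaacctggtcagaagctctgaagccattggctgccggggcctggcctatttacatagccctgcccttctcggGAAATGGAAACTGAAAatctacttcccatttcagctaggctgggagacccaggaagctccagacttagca
Ifit3: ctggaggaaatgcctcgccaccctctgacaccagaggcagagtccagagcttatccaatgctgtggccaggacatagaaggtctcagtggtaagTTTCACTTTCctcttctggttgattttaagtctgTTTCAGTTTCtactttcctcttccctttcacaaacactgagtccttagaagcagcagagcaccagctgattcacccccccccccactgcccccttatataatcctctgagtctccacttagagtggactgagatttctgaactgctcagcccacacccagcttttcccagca
Parp12: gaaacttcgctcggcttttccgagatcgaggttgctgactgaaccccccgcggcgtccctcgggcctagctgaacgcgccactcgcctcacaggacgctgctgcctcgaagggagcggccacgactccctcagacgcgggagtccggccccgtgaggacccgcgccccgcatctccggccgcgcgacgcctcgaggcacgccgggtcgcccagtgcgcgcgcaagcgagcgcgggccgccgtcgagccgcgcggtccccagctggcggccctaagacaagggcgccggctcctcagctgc
Counted from the first transcribed base, the 3 overlapping matches of Isg15 begin at -78, -72 and -66, those of Oas1a at -20 and -14, and those of Ifit3 at -156 and -122. The log2 fold change of siNeg against day 0 had a median of 0.76 over the 13 genes with a match and 0.80 over the 14 without one. Of these, 8 and 11 rose at an adjusted p under 0.05 in the test described below, beside 10.5% of all tested genes. The difference between genes with and without a match was not tested.

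Day 0 libraries held 60.2 M to 75.3 M counts each, D5W libraries 73.1 M to 85.9 M, siNeg libraries 68.5 M to 80.2 M and siPD-L1 libraries 66.7 M to 84.4 M, and the lowest count of any member in any library was 22. siNeg replicate 3 stood above the other libraries for most members, and calls that end without it are given with their value without it. In siPD-L1 replicate 1, 9.71% of counts fell on the gene Gm42418, and D5W replicate 3 had the highest fibroblast marker sum. Fold changes below are log2 values ± standard error from edgeR's quasi-likelihood test with Benjamini-Hochberg adjustment over all 17141 genes, and a gene is said to have risen or fallen where its adjusted p was under 0.05. Nothing in the labels says that each library came from a separate mouse, so p-values measure the spread between libraries. The day 7 comparisons share the D5W or the siNeg libraries, and those against day 0 share the day 0 libraries, so they are not independent of each other. Time, injection and tumour growth cannot be told apart in a comparison with day 0. In these bulk samples, fewer cells of a type and less RNA per cell cannot be told apart.

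Cd274, which encodes PD-L1 and is the gene the siRNA is read to target, is itself inducible by interferon. Cd274 measured 11.8, 12.5 and 11.8 CPM at day 0, 14.8, 13.8 and 18.5 after D5W, 17.6, 31.6, 28.8 and 21.6 after siNeg, and 15.8, 16.5, 17.01 and 20.8 after siPD-L1. The siPD-L1 libraries overlapped those of siNeg and of D5W, and all were above day 0. Cd274 was -0.50 ± 0.16 (adjusted p = 0.515) for siPD-L1 against siNeg and 0.16 ± 0.17 (adjusted p = 0.913) for siPD-L1 against D5W, and neither passed the test. Against day 0 it rose by 1.05 ± 0.18 (adjusted p = 0.00139) with siNeg and 0.55 ± 0.17 (adjusted p = 0.0366) with siPD-L1.

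The level per kilobase of exon was highest for Bst2, a tetherin that holds enveloped virions at the cell surface, with a median over the libraries of 28.5 CPM per kb. It was followed by Parp12 at 9.80, Ifit2 at 9.72 and Rsad2 at 9.01 CPM per kb. These levels are per length, so genes can be set side by side. Oas3 and Ifi44 were lowest, at 0.129 and 0.127 CPM per kb. The range across the 14 libraries was widest for Oas3 (10.9-fold), Usp18 (7.59-fold), Mx1 (6.75-fold) and Irf7 (6.53-fold). It was narrowest for Ifit2 (1.46-fold), Adar (1.49-fold) and Herc6 (1.497-fold). Group means were highest with siNeg for 36 of the 37 genes, the exception being Rsad2, which was highest with D5W. They were lowest at day 0 for 30 genes, with D5W for 6 and with siPD-L1 for Isg15. The full order from day 0 through D5W and siPD-L1 up to siNeg was seen in 26 of the 37 genes. The shares of all tested genes with these orders were not computed. siNeg replicate 3 was the highest of its group for 35 of the 37 genes. By the mean of the other siNeg libraries, siNeg was no longer highest for Ifit1, Oasl1, Eif2ak2, Dtx3l and Ifit2. For Ifit1 that mean was 6.865 CPM, against 8.22 CPM with D5W. siNeg stayed highest for the other genes apart from Rsad2.

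**Figure D1:**
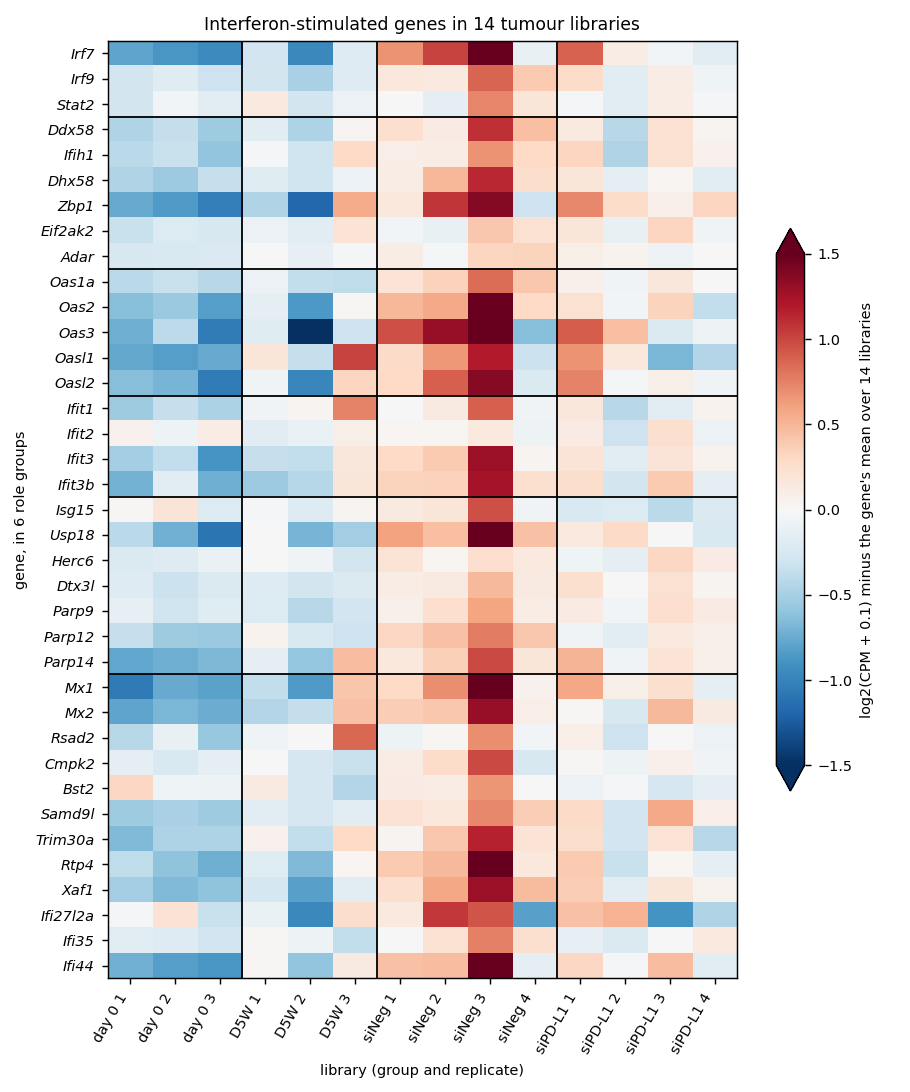
Level of each of the 37 genes (rows, grouped by role) in each of the 14 libraries (columns, by group and replicate number), as the difference in log2(CPM + 0.1) from the gene's mean over all libraries, with the colour scale ending at the values marked on the bar. The column of siNeg replicate 3 is above the mean for all 37 genes, and the 3 day 0 columns are below it for at least 34 genes each.

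Against untreated day 0 tumours, siNeg gave the most risen members: 28 of the 37 rose and 0 fell, beside 10.5% of all tested genes that rose and 7.91% that fell. The median log2 fold change of the 37 was 0.97, against -0.0094 to 0.016 over all tested genes in the 7 comparisons, and all 37 values were above 0, beside 51.0% of all tested genes. At an unadjusted p under 0.05, 33 members were higher and 0 lower, beside 17.5% and 15.3% of all genes. In 30 of the 37 every siNeg library lay above every day 0 library, as it did for 20.6% of all tested genes. All 5 oligoadenylate synthetase genes rose, as did 5 of the 6 nucleic acid sensors, 3 of the 4 IFIT genes, 8 of the 12 other antiviral effectors, 5 of the 7 ubiquitin-like and ADP-ribosylation genes, and 2 of the 3 signalling factors. Those that did not pass were Stat2, Eif2ak2, Ifit2, Isg15, Herc6, Rsad2, Cmpk2, Bst2 and Ifi27l2a. Without siNeg replicate 3, 23 members passed and the median was 0.76. The calls that ended were those of Zbp1, Oas3, Oasl1, Ifit1 and Ifi35. When each library of both groups was left out in turn, 17 of the 28 calls held every time. Besides those 5, a call ended for Irf9, Ifih1, Oasl2, Ifit3b, Parp9 and Trim30a, in each case when a day 0 library was left out, with adjusted p up to 0.0731.

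Against day 0, siPD-L1 gave 12 risen members and 0 that fell, beside 11.5% of all tested genes that rose and 10.4% that fell. The median was 0.49, and 34 of the 37 values were above 0, beside 51.6% of all tested genes. Before adjustment, 23 members were higher and 0 lower at p under 0.05, beside 18.5% and 17.6% of all genes. The 12 were Irf7, Zbp1, Adar, Oas1a, Dtx3l, Parp12, Parp14, Mx1, Mx2, Samd9l, Xaf1 and Ifi44. No overlap between the libraries of the groups was seen for 25 members, all higher with siPD-L1, and for 17.0% of all tested genes in that direction. The count of 12 rests on single libraries: it was 3, 2 and 4 without day 0 replicate 1, 2 and 3, and 4 and 6 without siPD-L1 replicate 1 and 3. Parp12 and Samd9l were the 2 whose call held whichever library was left out. Of the 7 fits that left out 1 library, the call ended in all 7 for Zbp1 and in 6 for Adar and Mx2. It ended in 5 for Oas1a, Mx1, Xaf1 and Ifi44, in 4 for Irf7, in 2 for Parp14 and in 1 for Dtx3l.

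Against day 0, no member passed the test with D5W, beside 11.8% of all tested genes that rose and 9.69% that fell. The median was 0.31 and 30 of the 37 values were above 0, beside 50.3% of all tested genes. At an unadjusted p under 0.05, 8 members were higher and 0 lower, beside 18.8% and 18.1% of all genes. DESeq2 called 4. Leaving out D5W replicate 1 or 2 gave 2 or 4 calls. The groups did not overlap for 14 members, all higher with D5W, beside 21.5% of all tested genes.

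**Figure D2:**
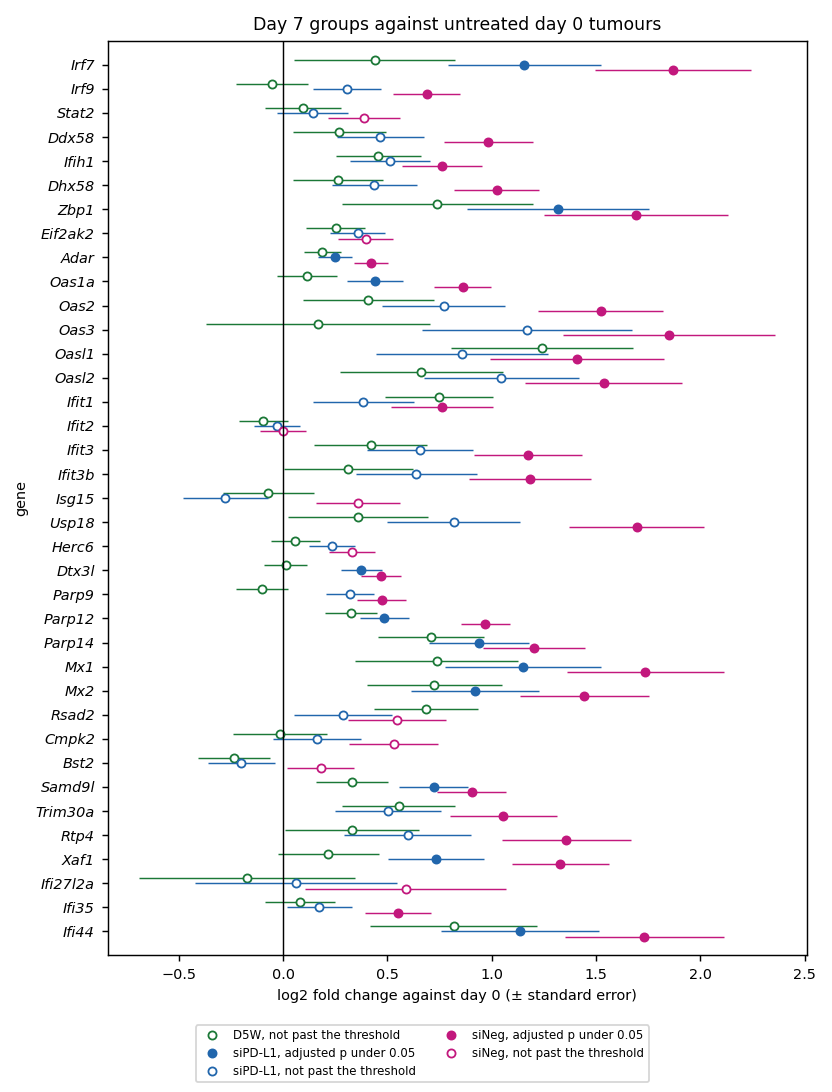
Log2 fold change of each of the 37 genes against day 0 (x axis, bars are standard errors; n = 3 at day 0 and with D5W, 4 with siNeg and with siPD-L1), with filled points where the adjusted p was under 0.05. Filled points number 28 for siNeg, 12 for siPD-L1 and 0 for D5W, and Ifit2 lies near 0 in all 3 comparisons.

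At day 7, no member passed the test in any comparison, although most values pointed one way. With siNeg against D5W, 36 of the 37 log2 fold changes were above 0, beside 53.0% of all tested genes, with a median of 0.64. None passed the adjusted test (0 of 37), beside 0.0233% of all tested genes that rose and 0.0817% that fell. At an unadjusted p under 0.05, 26 members were higher and 0 lower, beside 6.86% and 8.09% of all genes. DESeq2 called 14. For DESeq2 and for fits without 1 library, here and below, the shares of all genes that passed are not given. The edgeR shares are not their background. In 15 members every siNeg library exceeded every D5W library, as for 7.01% of all tested genes. Without siNeg replicate 3, 34 values were above 0, the median was 0.44 and 18 members had an unadjusted p under 0.05. Without D5W replicate 1, 2 members passed.

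With siPD-L1 against D5W, 32 of the 37 values were above 0, beside 51.9% of all tested genes, with a median of 0.23, and 0 members passed, beside 0% of all tested genes that rose and 0.0292% that fell. At an unadjusted p under 0.05, 6 members were higher and 0 lower, beside 3.24% and 4.78% of all genes, and DESeq2 called 1. The libraries of the groups did not overlap for 5 members that were higher and 1 that was lower with siPD-L1, beside 2.65% and 3.09% of all tested genes. With both siRNA groups as 1 arm against D5W, 34 values were above 0, beside 53.0% of all tested genes, and the median was 0.46. Here 0 members passed, beside 0.0233% of all genes that rose and 0.228% that fell. Before adjustment, 18 were higher and 0 lower at p under 0.05, beside 4.87% and 7.11% of all genes, and DESeq2 called 7. In 5 members every library of both siRNA groups exceeded every D5W library, as for 0.968% of all tested genes. Without siNeg replicate 3, 1 member passed.

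With siPD-L1 against siNeg, all 37 values were below 0, whereas 47.7% of all tested genes had a value above 0. The median was -0.48, and no gene of the 17141 passed the adjusted test (0%). Before adjustment, 16 members were lower and 0 higher at p under 0.05, beside 4.22% and 4.36% of all genes, and DESeq2 called 1, Parp12. In 5 members every siPD-L1 library lay below every siNeg library, as for 3.19% of all tested genes. The size of the difference rests on siNeg replicate 3. Without it, 34 values were below 0, the median was -0.18 and 5 members had an unadjusted p under 0.05.

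**Figure D3:**
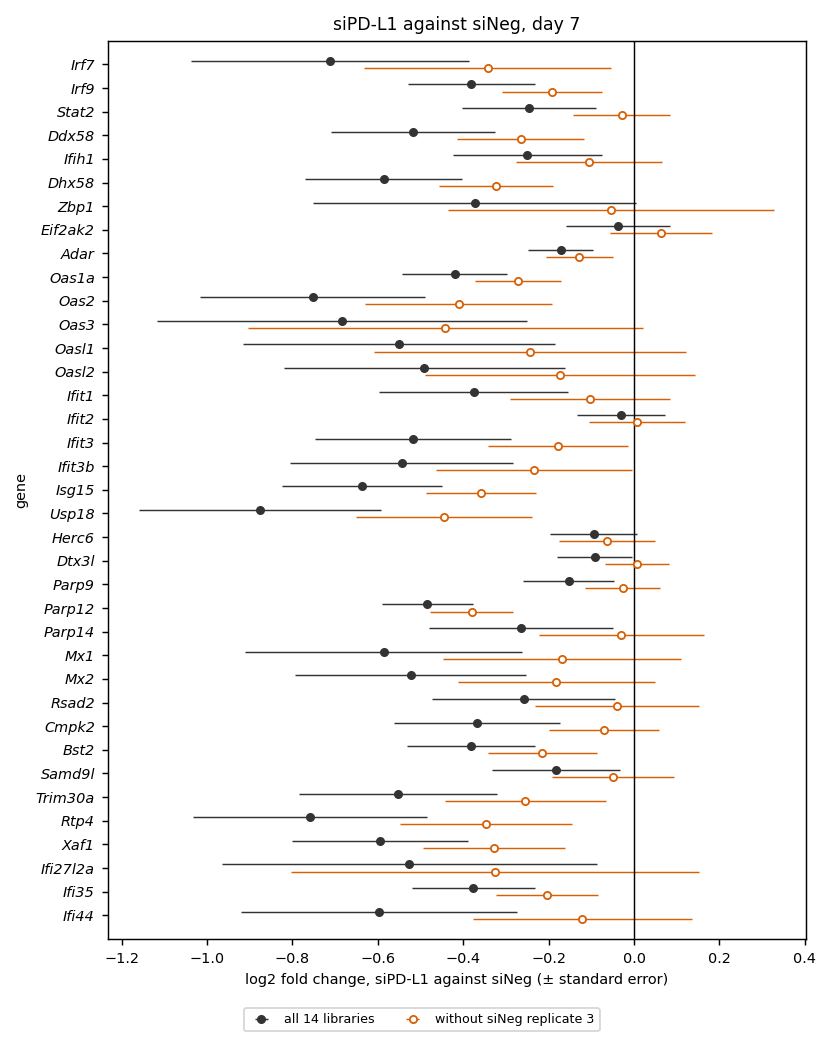
Log2 fold change of each of the 37 genes for siPD-L1 against siNeg (x axis, bars are standard errors), with all libraries (n = 4 each) and without siNeg replicate 3 (n = 3 for siNeg). All 37 points are below 0 with all libraries, and 34 are without that library, with medians of -0.48 and -0.18.

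The 3 signalling factors are Irf7, Irf9 and Stat2. Irf7 amplifies the response by inducing further interferon genes. Irf7 measured 3.02, 2.84 and 2.68 CPM at day 0, 4.32, 2.66 and 4.61 after D5W, 8.49, 10.8, 17.4 and 4.88 after siNeg, and 9.87, 5.70, 5.13 and 4.67 after siPD-L1. All libraries of both siRNA groups exceeded all D5W and day 0 libraries, though the lowest siPD-L1 library, at 4.67 CPM, nearly met the highest D5W library, at 4.61 CPM. Within their groups, siNeg replicate 3 and siPD-L1 replicate 1 were the highest. Irf7 rose against day 0 by 1.87 ± 0.37 (adjusted p = 0.00458) with siNeg and by 1.16 ± 0.37 (adjusted p = 0.0376) with siPD-L1. Against D5W its values were 1.43 ± 0.36 (adjusted p = 0.122) with siNeg and 0.72 ± 0.36 (adjusted p = 0.663) with siPD-L1, and it was 0.44 ± 0.39 (adjusted p = 0.429) for D5W against day 0 and -0.71 ± 0.32 (adjusted p = 0.575) for siPD-L1 against siNeg. For both siRNA groups against D5W it was 1.07 ± 0.33 (adjusted p = 0.201). The difference between siPD-L1 and siNeg was -0.34 ± 0.29 (adjusted p = 0.804) without siNeg replicate 3.

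Irf9 is the DNA-binding subunit of ISGF3. Irf9 measured 11.5, 12.2 and 11.2 CPM at day 0, 11.5, 9.89 and 12.2 after D5W, 15.5, 15.4, 25.6 and 18.4 after siNeg, and 16.9, 12.3, 14.99 and 13.3 after siPD-L1. Every library of both siRNA groups was above every D5W library, and the highest D5W library nearly met the lowest siPD-L1 library. Irf9 rose against day 0 with siNeg, by 0.69 ± 0.16 (adjusted p = 0.0104), and was 0.31 ± 0.16 (adjusted p = 0.187) with siPD-L1. Against D5W it was among the 6 members with the smallest p for both siRNA groups together, 0.55 ± 0.15 (adjusted p = 0.128), with 0.74 ± 0.16 (adjusted p = 0.0868) for siNeg and 0.36 ± 0.16 (adjusted p = 0.589) for siPD-L1. It was -0.05 ± 0.17 (adjusted p = 0.843) for D5W against day 0 and -0.38 ± 0.15 (adjusted p = 0.532) for siPD-L1 against siNeg, or -0.19 ± 0.12 (adjusted p = 0.754) without siNeg replicate 3.

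Stat2 carries the transactivation domain of ISGF3. Stat2 measured 13.5, 15.9 and 14.5 CPM at day 0, 18.1, 13.5 and 15.4 after D5W, 16.2, 14.7, 27.1 and 18.4 after siNeg, and 16.1, 14.6, 17.6 and 16.1 after siPD-L1. The groups overlapped, apart from siNeg replicate 3, which stood above every other library. Stat2 passed no comparison: it was 0.39 ± 0.17 (adjusted p = 0.130) for siNeg and 0.14 ± 0.17 (adjusted p = 0.583) for siPD-L1 against day 0, 0.29 ± 0.17 (adjusted p = 0.425) and 0.05 ± 0.17 (adjusted p = 0.985) against D5W, 0.10 ± 0.18 (adjusted p = 0.730) for D5W against day 0, and -0.25 ± 0.16 (adjusted p = 0.660) for siPD-L1 against siNeg. For both siRNA groups against D5W it was 0.17 ± 0.15 (adjusted p = 0.698). With siNeg replicate 3 left out, it was 0.17 ± 0.12 (adjusted p = 0.392) against day 0, 0.07 ± 0.12 (adjusted p = 0.810) for siNeg against D5W and -0.03 ± 0.11 (adjusted p = 0.962) for siPD-L1 against siNeg.

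Among the nucleic acid sensors, Ifih1 (MDA5) detects long double-stranded RNA, Ddx58 (RIG-I) detects RNA with a 5' triphosphate, and Dhx58 (LGP2) modulates both. Ifih1 measured 10.8, 11.5 and 9.55 CPM at day 0, 14.3, 11.7 and 17.7 after D5W, 15.4, 15.6, 23.1 and 17.8 after siNeg, and 18.1, 10.5, 16.9 and 15.1 after siPD-L1. All siNeg libraries exceeded all day 0 libraries, while D5W spanned most of the siPD-L1 range. Ifih1 rose against day 0 with siNeg by 0.76 ± 0.19 (adjusted p = 0.0147), and it was 0.46 ± 0.20 (adjusted p = 0.117) with D5W and 0.51 ± 0.19 (adjusted p = 0.0684) with siPD-L1. Its difference between siNeg and D5W was 0.31 ± 0.19 (adjusted p = 0.453), or 0.16 ± 0.18 (adjusted p = 0.718) without siNeg replicate 3. Dhx58 measured 3.56, 3.33 and 3.83 CPM at day 0, 4.30, 3.96 and 4.61 after D5W, 5.30, 6.97, 10.9 and 5.90 after siNeg, and 5.56, 4.46, 5.01 and 4.33 after siPD-L1. Every siNeg library was above every D5W library. Dhx58 rose against day 0 with siNeg by 1.02 ± 0.20 (adjusted p = 0.00406), and it was -0.59 ± 0.18 (adjusted p = 0.515) for siPD-L1 against siNeg, or -0.32 ± 0.13 (adjusted p = 0.742) without siNeg replicate 3. Ddx58 rose with siNeg against day 0 by 0.98 ± 0.21 (adjusted p = 0.00649), and its siNeg libraries all exceeded its D5W libraries.

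Adar edits adenosine to inosine in double-stranded RNA, which keeps cellular RNA from being sensed. Adar measured 57.9, 58.5 and 59.00 CPM at day 0, 69.1, 63.1 and 67.7 after D5W, 74.2, 67.5, 85.5 and 86.2 after siNeg, and 73.1, 71.1, 64.8 and 69.1 after siPD-L1. The day 0 libraries lay close together and below all libraries of the other groups. Adar rose against day 0 by 0.42 ± 0.08 (adjusted p = 0.00344) with siNeg and 0.25 ± 0.08 (adjusted p = 0.0403) with siPD-L1, a small change with a small error, and it was 0.19 ± 0.09 (adjusted p = 0.130) with D5W. The siPD-L1 call of Adar ended in 6 of the 7 fits that left out 1 library, with adjusted p up to 0.131. Zbp1, a Z-nucleic acid sensor that can trigger necroptosis, rose against day 0 by 1.69 ± 0.44 (adjusted p = 0.0172) with siNeg and 1.32 ± 0.44 (adjusted p = 0.0440) with siPD-L1. The siNeg call ended without siNeg replicate 3, at 1.37 ± 0.43 (adjusted p = 0.0513), and without any 1 day 0 library, and the siPD-L1 call ended whichever of its libraries was left out. Eif2ak2 (PKR), which halts translation on double-stranded RNA, was 0.40 ± 0.13 (adjusted p = 0.0517) for siNeg against day 0.

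The oligoadenylate synthetases make 2',5'-linked oligoadenylates that activate RNase L, while Oasl1 and Oasl2 are related proteins. Oas1a measured 7.67, 8.09 and 7.61 CPM at day 0, 9.59, 7.87 and 7.81 after D5W, 11.8, 12.98, 18.2 and 13.5 after siNeg, and 10.7, 9.81, 11.5 and 10.2 after siPD-L1. Each siNeg library exceeded every library of the D5W and day 0 groups, and each siPD-L1 library exceeded every D5W library. Oas1a rose against day 0 by 0.86 ± 0.14 (adjusted p = 0.000940) with siNeg and 0.44 ± 0.13 (adjusted p = 0.0305) with siPD-L1. Against D5W it was 0.75 ± 0.13 (adjusted p = 0.0502) with siNeg, and 0.33 ± 0.13 (adjusted p = 0.536) with siPD-L1, and against siNeg siPD-L1 was -0.42 ± 0.12 (adjusted p = 0.504), or -0.27 ± 0.10 (adjusted p = 0.711) without siNeg replicate 3. For both siRNA groups against D5W it was 0.54 ± 0.12 (adjusted p = 0.0780). In exon sequence, 57.6% of the 50-base stretches of Oas1a recur in other genes, among them Oas1g and Oas1b, so its reads could be split between them.

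Oasl1, which in mice restrains translation of Irf7, followed another order. Oasl1 measured 1.17, 1.12 and 1.18 CPM at day 0, 2.35, 1.60 and 4.26 after D5W, 2.53, 3.29, 4.82 and 1.63 after siNeg, and 3.34, 2.32, 1.24 and 1.49 after siPD-L1. D5W replicate 3 was close to the highest siNeg library, and the groups at day 7 overlapped. Oasl1 rose with siNeg against day 0 by 1.41 ± 0.42 (adjusted p = 0.0312), and was 1.24 ± 0.44 (adjusted p = 0.0555) with D5W and 0.86 ± 0.41 (adjusted p = 0.151) with siPD-L1. It was 0.17 ± 0.39 (adjusted p = 0.860) for siNeg and -0.38 ± 0.39 (adjusted p = 0.906) for siPD-L1 against D5W. Without siNeg replicate 3 the rise against day 0 no longer passed, at 1.10 ± 0.40 (adjusted p = 0.0916), and siNeg against D5W was -0.14 ± 0.39 (adjusted p = 0.895). The rise also did not pass without siNeg replicate 2 or any 1 day 0 library. Oas2, Oas3 and Oasl2 rose with siNeg against day 0 by 1.52 ± 0.30, 1.85 ± 0.51 and 1.54 ± 0.38. The call of Oas3 ended without siNeg replicate 3, at 1.61 ± 0.52 (adjusted p = 0.0621), and without any 1 day 0 library.

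IFIT proteins bind viral RNA at its 5' end and limit its translation. Ifit1 measured 4.61, 5.28 and 4.80 CPM at day 0, 6.49, 6.89 and 11.3 after D5W, 6.74, 7.41, 12.6 and 6.45 after siNeg, and 7.59, 5.00, 6.01 and 6.96 after siPD-L1. D5W replicate 3 and siNeg replicate 3 were the highest, and all libraries of D5W and siNeg were above day 0. Ifit1 rose with siNeg against day 0 by 0.76 ± 0.24 (adjusted p = 0.0432), was 0.75 ± 0.26 (adjusted p = 0.0517) with D5W, and differed between siNeg and D5W by 0.01 ± 0.24 (adjusted p = 0.983). Without siNeg replicate 3 the rise no longer passed, at 0.49 ± 0.20 (adjusted p = 0.129), and siNeg against D5W was -0.26 ± 0.20 (adjusted p = 0.572). The rise also did not pass without siNeg replicate 2 or any 1 day 0 library. Ifit3 and Ifit3b rose with siNeg against day 0 by 1.17 ± 0.26 and 1.18 ± 0.29. These are near-identical copies, with 51.2% and 44.95% of their 50-base stretches found in other genes, and their counts are uncertain for that reason. Ifit2 was 0.00 ± 0.11 (adjusted p = 0.995) for siNeg against day 0, with all 14 libraries between 30.1 and 44.1 CPM.

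Isg15 is a ubiquitin-like modifier that is joined to other proteins, and Usp18 removes it and also blocks the receptor. Isg15 measured 4.72, 5.37 and 4.04 CPM at day 0, 4.58, 4.08 and 4.80 after D5W, 5.12, 5.32, 9.19 and 4.49 after siNeg, and 3.99, 4.04, 3.49 and 4.01 after siPD-L1. All 4 siPD-L1 libraries were below all D5W and siNeg libraries, and siNeg replicate 3 stood far above the other 13. Isg15 had the third smallest p of the members for siPD-L1 against siNeg, -0.64 ± 0.19 (adjusted p = 0.504), without passing. It was 0.36 ± 0.20 (adjusted p = 0.238) for siNeg and -0.28 ± 0.20 (adjusted p = 0.347) for siPD-L1 against day 0, 0.43 ± 0.20 (adjusted p = 0.337) and -0.21 ± 0.20 (adjusted p = 0.896) against D5W, and -0.07 ± 0.22 (adjusted p = 0.840) for D5W against day 0. For both siRNA groups against D5W it was 0.11 ± 0.18 (adjusted p = 0.849). With siNeg replicate 3 left out, it was -0.36 ± 0.13 (adjusted p = 0.699) for siPD-L1 against siNeg, 0.08 ± 0.14 (adjusted p = 0.749) for siNeg against day 0 and 0.15 ± 0.14 (adjusted p = 0.643) for siNeg against D5W.

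Usp18 measured 2.04, 1.63 and 1.23 CPM at day 0, 2.74, 1.65 and 1.89 after D5W, 4.22, 3.79, 9.34 and 3.74 after siNeg, and 3.05, 3.38, 2.76 and 2.33 after siPD-L1. Every siNeg library was above every D5W library, and siNeg replicate 3 stood far above the other 3. Usp18 rose with siNeg against day 0 by 1.69 ± 0.32 (adjusted p = 0.00328), and was 0.82 ± 0.32 (adjusted p = 0.0787) with siPD-L1. It was 1.33 ± 0.32 (adjusted p = 0.109) for siNeg against D5W and -0.88 ± 0.28 (adjusted p = 0.515) for siPD-L1 against siNeg, or -0.44 ± 0.21 (adjusted p = 0.748) without siNeg replicate 3. Herc6, the mouse ligase that attaches Isg15 to its targets, was 0.33 ± 0.11 (adjusted p = 0.0506) for siNeg against day 0.

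Parp12 is a mono-ADP-ribosyltransferase that inhibits translation of viral RNA. Parp12 measured 30.7, 27.1 and 26.5 CPM at day 0, 40.7, 33.5 and 31.4 after D5W, 48.6, 53.03, 66.5 and 51.9 after siNeg, and 37.6, 35.2, 43.4 and 41.1 after siPD-L1. All siNeg libraries were above all other libraries, and all siPD-L1 libraries were above all day 0 libraries while overlapping D5W. Parp12 rose against day 0 by 0.97 ± 0.12 (adjusted p = 0.000158) with siNeg and 0.49 ± 0.12 (adjusted p = 0.00967) with siPD-L1, and was 0.33 ± 0.12 (adjusted p = 0.0719) with D5W. It was 0.64 ± 0.12 (adjusted p = 0.0502) for siNeg against D5W, 0.16 ± 0.12 (adjusted p = 0.823) for siPD-L1 against D5W, and -0.48 ± 0.11 (adjusted p = 0.420) for siPD-L1 against siNeg. For both siRNA groups against D5W it was 0.40 ± 0.10 (adjusted p = 0.121).

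Parp9 and Dtx3l encode an ADP-ribosyltransferase and an E3 ubiquitin ligase that work as a complex, and their exons overlap on opposite strands. Dtx3l measured 22.4, 20.6 and 22.1 CPM at day 0, 22.4, 21.2 and 22.1 after D5W, 27.8, 28.2, 36.02 and 28.2 after siNeg, and 30.3, 25.8, 30.2 and 26.5 after siPD-L1. Every library of both siRNA groups was above every D5W and day 0 library. Dtx3l rose against day 0 by 0.47 ± 0.10 (adjusted p = 0.00482) with siNeg and 0.38 ± 0.10 (adjusted p = 0.0132) with siPD-L1. Against D5W it was 0.46 ± 0.10 (adjusted p = 0.0769) with siNeg, 0.36 ± 0.10 (adjusted p = 0.197) with siPD-L1 and 0.41 ± 0.09 (adjusted p = 0.0633) with both together. Parp9 measured 21.04, 18.6 and 20.3 CPM at day 0, 19.96, 17.1 and 18.9 after D5W, 24.1, 27.4, 34.7 and 24.7 after siNeg, and 25.1, 22.4, 27.3 and 25.1 after siPD-L1. Its siRNA libraries likewise all exceeded the D5W and day 0 libraries. Parp9 rose with siNeg against day 0 by 0.47 ± 0.12 (adjusted p = 0.0127), and against D5W it was 0.57 ± 0.12 (adjusted p = 0.0734) for siNeg, 0.42 ± 0.12 (adjusted p = 0.238) for siPD-L1 and 0.50 ± 0.10 (adjusted p = 0.0633) for both together. Between the siRNA groups, Dtx3l was -0.09 ± 0.09 (adjusted p = 0.763) and Parp9 -0.15 ± 0.11 (adjusted p = 0.680). These were 0.01 ± 0.07 (adjusted p = 0.989) and -0.03 ± 0.09 (adjusted p = 0.954) without siNeg replicate 3.

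Parp14, a macrodomain ADP-ribosyltransferase, was high in D5W replicate 3. Parp14 measured 7.19, 7.38 and 7.73 CPM at day 0, 11.2, 8.25 and 17.02 after D5W, 13.8, 15.8, 24.8 and 14.04 after siNeg, and 17.7, 11.9, 14.3 and 13.1 after siPD-L1. All libraries at day 7 were above all day 0 libraries, and D5W replicate 3 lay within the range of both siRNA groups. Parp14 rose against day 0 by 1.20 ± 0.24 (adjusted p = 0.00455) with siNeg and 0.94 ± 0.24 (adjusted p = 0.0139) with siPD-L1, and was 0.71 ± 0.25 (adjusted p = 0.0586) with D5W. It was 0.49 ± 0.24 (adjusted p = 0.341) for siNeg against D5W, or 0.26 ± 0.21 (adjusted p = 0.589) without siNeg replicate 3.

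**Figure D4:**
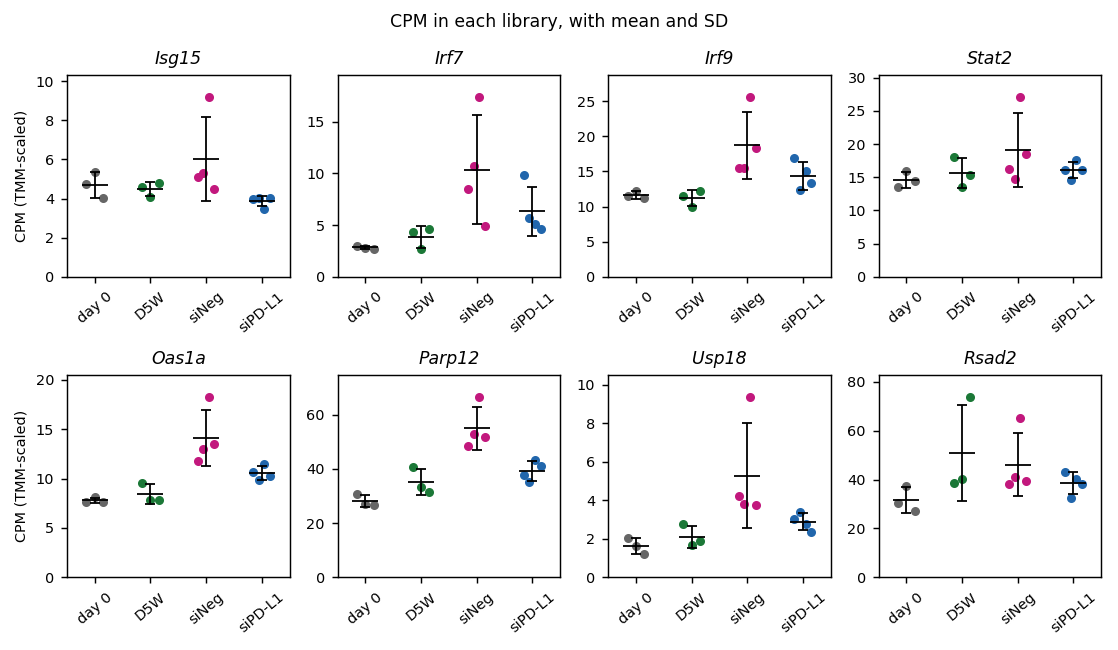
CPM of named genes in each library (y axis, linear from 0), by group, with each point a library, the long bar the group mean and the whiskers the SD (n = 3 or 4). siNeg replicate 3 is the highest of its group for Isg15, Irf7, Stat2 and Irf9, and the siPD-L1 points of Isg15 lie below all siNeg points.

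The other antiviral effectors include Xaf1, an interferon-induced gene linked to apoptosis, and Samd9l, a restriction factor that limits translation. Xaf1 measured 3.91, 3.53 and 3.68 CPM at day 0, 4.70, 3.17 and 5.07 after D5W, 6.78, 8.54, 14.02 and 7.87 after siNeg, and 7.33, 5.02, 6.41 and 5.89 after siPD-L1. Every siNeg library exceeded every D5W library, and siNeg replicate 3 was the highest. Xaf1 rose against day 0 by 1.33 ± 0.23 (adjusted p = 0.00188) with siNeg and 0.73 ± 0.23 (adjusted p = 0.0345) with siPD-L1, and was 1.11 ± 0.23 (adjusted p = 0.0761) for siNeg against D5W and -0.60 ± 0.21 (adjusted p = 0.523) for siPD-L1 against siNeg, or -0.33 ± 0.17 (adjusted p = 0.752) without siNeg replicate 3. Against D5W, Xaf1 was 0.52 ± 0.23 (adjusted p = 0.579) with siPD-L1 and 0.81 ± 0.21 (adjusted p = 0.114) with both siRNA groups. Samd9l measured 25.6, 26.4 and 25.8 CPM at day 0, 33.3, 31.3 and 33.3 after D5W, 43.3, 41.5, 61.5 and 47.99 after siNeg, and 45.5, 30.5, 55.3 and 39.8 after siPD-L1. The siNeg libraries were all above D5W, whereas siPD-L1 spanned from below D5W to within the siNeg range. Samd9l rose against day 0 by 0.90 ± 0.17 (adjusted p = 0.00262) with siNeg and 0.72 ± 0.17 (adjusted p = 0.00768) with siPD-L1, and between those groups it was -0.18 ± 0.15 (adjusted p = 0.718), or -0.05 ± 0.14 (adjusted p = 0.948) without siNeg replicate 3. It was 0.39 ± 0.16 (adjusted p = 0.542) for siPD-L1 against D5W.

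Rsad2 (viperin) makes a chain-terminating nucleotide that stops viral RNA synthesis. Rsad2 measured 30.2, 37.4 and 27.1 CPM at day 0, 38.7, 40.1 and 73.7 after D5W, 38.1, 41.2, 65.3 and 39.4 after siNeg, and 43.2, 32.4, 40.3 and 38.1 after siPD-L1. D5W replicate 3 and siNeg replicate 3 were the highest of the 14 libraries, and the other libraries at day 7 lay together. Rsad2 was 0.69 ± 0.25 (adjusted p = 0.0637) for D5W and 0.54 ± 0.24 (adjusted p = 0.124) for siNeg against day 0, and -0.14 ± 0.23 (adjusted p = 0.791) for siNeg against D5W, or -0.36 ± 0.21 (adjusted p = 0.462) without siNeg replicate 3. Mx1 and Mx2 belong to a family of dynamin-like GTPases that block viral replication, but C57BL/6 mice are known to carry defective Mx genes, and the annotation used here gives Mx2 as a polymorphic pseudogene. The transcripts rose against day 0 by 1.74 ± 0.38 and 1.44 ± 0.31 with siNeg, and by 1.15 ± 0.37 and 0.92 ± 0.31 with siPD-L1. Ifi44 rose by 1.73 ± 0.38 and 1.14 ± 0.38, at levels from 0.381 to 2.47 CPM. Rtp4 restrains interferon induction in mice, and Trim30a is a tripartite motif protein that dampens inflammatory signalling. Trim30a, Rtp4 and Ifi35 rose with siNeg against day 0 by 1.06 ± 0.26, 1.36 ± 0.31 and 0.55 ± 0.16. The call of Ifi35 ended without siNeg replicate 3, at 0.38 ± 0.13 (adjusted p = 0.0720), and without any 1 day 0 library. Cmpk2, Bst2 and Ifi27l2a did not pass, at 0.53 ± 0.21, 0.18 ± 0.16 and 0.59 ± 0.48.

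Within the siNeg group, replicate 3 stood apart. It was the highest of all 14 libraries for 32 of the 37 genes and the highest of its group for 35. Its CPM was 1.09-fold (Herc6) to 2.55-fold (Ifi44) the mean of the other siNeg libraries, with a median of 1.76-fold, and above that mean for all 37. The mean log2 CPM of the members was 3.97 in that library, against 3.03 to 3.34 in the other siNeg libraries, 2.86 to 3.21 with siPD-L1, 2.47 to 3.01 with D5W and 2.40 to 2.54 at day 0. Within D5W, replicate 3 was highest for 24 members and replicate 2 lowest for 26. siNeg replicate 3 and replicate 2 had NK cell marker sums of 3.74 and 3.51 CPM, above 0.977 to 1.59 CPM in the other siNeg libraries, while the macrophage marker sum of replicate 3, 169.7 CPM, was within the 113.9 to 266.8 CPM of the group. Their part in the members' levels was not tested.

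Other genes of the pathway were read from fixed lists. Of 9 interferon ligands in the table, Ifna1, Ifna2, Ifne and Ifnl3 had 0 counts in all 14 libraries, which allows up to 3 counts or 0.0339 to 0.0543 CPM in a library. Ifnb1, the interferon beta gene, had at most 11 counts, and Ifng, the interferon gamma gene, at most 14. Only Ifng was abundant enough to be tested, and it passed no comparison. Among 8 receptors, kinases and signal transducers, 1, 3 and 2 rose against day 0 with D5W, siNeg and siPD-L1, and 1, 0 and 1 fell. The risen shares were 12.5%, 37.5% and 25.0%, beside 11.8%, 10.5% and 11.5% of all tested genes. Stat3 rose against day 0 by 0.30 ± 0.08 with D5W, 0.39 ± 0.08 with siNeg and 0.38 ± 0.08 with siPD-L1, and the receptor gene Ifnar1 passed no comparison. Of 13 sensors and adaptors tested, 1 rose and 4 fell with D5W, 2 rose and 1 fell with siNeg, and 1 rose and 3 fell with siPD-L1 against day 0. The risen shares were 7.69%, 15.4% and 7.69% in that order, beside 11.8%, 10.5% and 11.5% of all tested genes. The fallen shares were 30.8%, 7.69% and 23.1%, beside 9.69%, 7.91% and 10.4%. Trim25, a ligase that activates RIG-I, rose against day 0 in all 3 day 7 groups, by 0.53 ± 0.13, 0.78 ± 0.13 and 0.64 ± 0.13 in the order D5W, siNeg, siPD-L1. Tmem173 (STING), the adaptor of cytosolic DNA sensing, fell in the same 3, at -0.39 ± 0.09, -0.28 ± 0.09 and -0.39 ± 0.09.

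Of 8 negative regulators, 1 rose against day 0 with each of D5W, siNeg and siPD-L1 (12.5%), beside 11.8%, 10.5% and 11.5% of all tested genes. In that order 2, 1 and 2 fell (25.0%, 12.5% and 25.0%), beside 9.69%, 7.91% and 10.4%. The risen gene was Socs3, an inhibitor of JAK kinases, by 1.70 ± 0.34, 2.23 ± 0.33 and 1.97 ± 0.33 with D5W, siNeg and siPD-L1. Isg20, an interferon-induced exonuclease placed in the same list, fell at -0.70 ± 0.22, -0.97 ± 0.21 and -0.89 ± 0.21. Socs1, the related inhibitor that targets the interferon receptors' kinases, passed none, with -0.82 ± 0.29 (adjusted p = 0.519) for siPD-L1 against siNeg. Of 36 further type I induced genes tested, 17 rose and 0 fell with siNeg against day 0, 5 rose and 2 fell with siPD-L1, and 4 rose and 1 fell with D5W. The risen shares were 47.2%, 13.9% and 11.1%, beside 10.5%, 11.5% and 11.8% of all tested genes, so those of siPD-L1 and D5W were near the background. Helz2, a helicase coactivator, rose in all 3, by 1.01 ± 0.11 with siNeg. In this list, 33 of 36 values were above 0 for siNeg against D5W and 4 of 36 for siPD-L1 against siNeg, with 0 passing in either. Of 15 tested genes that lean to interferon gamma, 8 rose with siNeg, 5 with siPD-L1 and 4 with D5W against day 0, which is 53.3%, 33.3% and 26.7%. Nlrc5, the activator of MHC class I genes, rose in all 3, by 1.53 ± 0.29, 1.74 ± 0.28 and 1.10 ± 0.27 with D5W, siNeg and siPD-L1.

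Markers of cells that could carry these genes moved in part with the groups. The summed level of 7 NK cell markers was 0.627 to 0.673 CPM at day 0, 0.553 to 1.80 CPM with D5W, 0.977 to 3.74 CPM with siNeg and 1.09 to 2.23 CPM with siPD-L1, and 2 of 5 tested markers rose against day 0 in each siRNA group, beside 10.5% of all tested genes with siNeg and 11.5% with siPD-L1. The 9 T cell markers summed to 6.38 to 7.89, 6.16 to 10.2, 6.41 to 11.1 and 5.87 to 8.45 CPM in the same order, and the 10 macrophage markers to 196.7 to 236.0, 163.5 to 265.7, 113.9 to 266.8 and 83.1 to 181.9 CPM. The macrophage sums of siPD-L1 lay below those of day 0, as did Lyz2, at 21.6 to 45.2 CPM against 63.6 to 85.7 CPM. The other 9 macrophage markers overlapped, at 61.5 to 139.4 CPM with siPD-L1 and 133.1 to 150.3 CPM at day 0. For siPD-L1 against day 0, 1 of the 10 macrophage markers had a log2 fold change above 0, beside 51.6% of all tested genes. In that comparison 1 of the 10 fell, beside 10.4% of all tested genes. Of the T cell sum, 55.7% was Lck, which was highest at day 0, at 4.86 to 5.43 CPM, and 4.02 to 4.46 CPM with siNeg. The other 8 T cell markers summed to 1.52 to 2.46 CPM at day 0, 1.76 to 5.88 CPM with D5W, 2.34 to 6.68 CPM with siNeg and 2.04 to 4.16 CPM with siPD-L1. For siNeg against day 0, 8 of the 9 T cell markers had a log2 fold change above 0, beside 51.0% of all tested genes. Their median was 1.02, and 1 rose (11.1%), beside 10.5% of all tested genes. For D5W against day 0, 8 were also above 0, beside 50.3% of all tested genes, with a median of 0.38, and 0 passed. For siPD-L1 against day 0, 0 rose and 1 fell (11.1%), beside 11.5% and 10.4% of all tested genes. The sum of the 7 plasmacytoid dendritic cell markers was 97.8% Tcf4, which is not restricted to that cell type, and the other 6 summed to 0.840 to 2.20 CPM over all libraries. The 8 conventional dendritic cell markers summed to 10.5 to 20.7 CPM, of which 54.4% was Zbtb46. The 7 fibroblast markers summed to 111 to 147 CPM at day 0 and 102 to 829 CPM with D5W. They summed to 59.2 to 158 CPM with siNeg and 60.7 to 321 CPM with siPD-L1. The 7 endothelial markers summed to 28.9 to 37.8 CPM at day 0, 47.7 to 68.6 CPM with D5W, 45.8 to 57.9 CPM with siNeg and 49.1 to 68.4 CPM with siPD-L1. Every sum at day 7 was above day 0, but 69.7% of it was Vwf. The other 6 summed to 7.23 to 13.5 CPM at day 0 and 17.7 to 31.7 CPM with D5W. With siNeg and siPD-L1 they overlapped day 0, at 7.03 to 19.01 CPM and 11.5 to 25.1 CPM. Of the 7 endothelial markers, 4 rose with D5W, 1 with siNeg and 2 with siPD-L1 against day 0. These shares were 57.1%, 14.3% and 28.6%, beside 11.8%, 10.5% and 11.5% of all tested genes. The 5 erythroid markers summed to 127.4 to 983.3 CPM at day 0, 10.2 to 158.2 CPM with D5W, 9.10 to 90.8 CPM with siNeg and 42.8 to 349.6 CPM with siPD-L1. Their median log2 fold change against day 0 was -2.60, -3.38 and -1.79 in that order, and 0 of 5 passed edgeR's adjusted test in each, with 2, 5 and 0 at an unadjusted p under 0.05. Of all tested genes, 18.1%, 15.3% and 17.6% were lower at that unadjusted p. No marker of these lists was at 0 in every library, and their part in the members' differences was not tested.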

How the data were processed

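Tumour RNA was sequenced in 14 libraries of 4 groups. Per the labels' protocols, RNA was isolated with a Qiagen kit and libraries were TruSeq stranded. Per the submitters' processing notes, FastQC 0.11.3, STAR, featureCounts and edgeR were used on GRCm38; for the other versions and the strand setting, the sources used here give nothing. What the authors deposited is a table of raw counts, whole and unnormalized, by Ensembl gene ID. GENCODE M21 matched 37386 of 37409 gene IDs.

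R 4.3.3 with edgeR 4.0.16 was used: TMM scaling, filterByExpr by group (17141 genes), 1 robust quasi-likelihood fit of all 14 libraries, F-tests, Benjamini-Hochberg adjustment over all tested genes at 0.05. CPM use TMM-scaled library sizes. Log2 CPM used a prior count of 2. The biological coefficient of variation was 16.6%. Alternatives included DESeq2 1.42.0, other scalings, no filter, replicate number as a block and each library left out. The pipeline was tested on simulated counts. Library totals were 60.2 M to 85.9 M counts.

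Members, lists and comparisons were chosen with earlier results of these data known. Full statistics are given for Isg15, Irf7, Stat2 and Irf9 and, per comparison, up to 6 members with the smallest p. Exons of 9 members overlap a gene on the opposite strand and of 4 on the same strand. In 5 members, over 10% of the 50-base stretches recur in other genes (Oas1a, Ifit3, Ifit3b, Herc6, Rtp4). Ifnl2, Mb21d1, Trex1, Mnda and Ifi47 were not analysed here. Promoters are RefSeq windows of GRCm38.p6.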

Additional observations from a re-analysis of the deposited data

Results flagged for a closer look

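Within groups of 4 libraries, 6 of 74 gene and group pairs had a library far from the other 3 by Dixon's test, where chance gives about 1 in 20. In siNeg, replicate 3 stood above the others for Ifit3b (log2 CPM 2.36), Usp18 (3.23), Dtx3l (5.17) and Rsad2 (6.03). In siPD-L1, replicate 1 stood above the others for Oasl2 (2.70), and replicate 3 stood below them for Isg15 (1.82).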

How the results depend on the processing

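The 28 members higher with siNeg against day 0 became 23 to 31 under the other scalings, filter, tests and added settings, and 19 to 29 when 1 library was left out. For siPD-L1 against day 0, the 12 became 4 with library totals only, 7 with no low-count filter, 20 with DESeq2, 21 in a fit of only the groups compared, 6 after removing a GC and length trend, and 2 to 13 with 1 library left out. For D5W against day 0, the 0 became 3, 4 and 1 with library totals, DESeq2 and only the groups compared, 1 with the trend removed, and 0 to 4 with 1 library left out. For siNeg against D5W, 5 passed with no filter, 14 with DESeq2 and 3 with the trend removed (0 to 2 with 1 library left out), and for both siRNA groups 1, 7 and 2 (0 to 1). DESeq2 called 1 member for siPD-L1 against D5W and 1 for siPD-L1 against siNeg, both 0 to 0 with 1 library left out. The shares of all genes that passed in these settings are not given here, so these member counts have no background beside them. The cause of these moves was not tested. The GC and length trend and a fit without D5W replicate 3 and siPD-L1 replicate 1 were chosen after seeing the data.

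Replicate number as a block gave 1 call for D5W against day 0, 27 for siNeg and 16 for siPD-L1 against day 0, and 0 in the other comparisons. Same-numbered libraries of different groups had correlations of -0.32 to 0.25 with 6 of 19 above 0.1, and nothing in the labels ties the numbers together, so the numbers were not taken as pairs.

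Of the named members' values, 11 changed sign, none of them past the threshold. For D5W against day 0, Isg15 was 0.029 with library totals, 0.304 with the trend removed and -0.173 to 0.030 with 1 library left out (above 0 without day 0 replicate 2). Irf9 was 0.039 with library totals and -0.119 to 0.024 with 1 library left out (above 0 without D5W replicate 2), and Stat2 was -0.023 to 0.190 (below 0 without D5W replicate 1). For siPD-L1 against D5W, Stat2 was -0.042 with library totals and -0.049 to 0.164 with 1 library left out (below 0 without D5W replicate 2 or siPD-L1 replicate 3, where it was -0.00100). Isg15 was 0.053 for siPD-L1 against day 0 with the trend removed, and -0.028 to 0.170 for both siRNA groups against D5W, below 0 without siNeg replicate 3.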
